A study of Rattus norvegicus with 12 samples.

Results

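Matrix metalloproteinases (MMPs) and the tissue inhibitors of metalloproteinases (TIMPs) were examined in fibroblast-like synoviocytes (FLS), the cells of the joint lining that break down cartilage in arthritis. The 9 genes were the MMPs Mmp2, Mmp3, Mmp13, Mmp14, Mmp19 and Mmp23 and the inhibitors Timp1, Timp2 and Timp3. They were found by gene name among 22442 gene records. Where several records carried 1 name, the record with the highest mean was used, and 4 further records of Mmp2, Mmp3 and Mmp14 were set aside and are described with those genes. The FLS were grown out of the synovium of rats in which adjuvant arthritis (AA) had been induced with Freund's complete adjuvant, so that all 4 groups, the control included, came from arthritic joints. Cells of the third passage received DMEM alone (FCA group) or taurochenodeoxycholic acid (TCDCA), a taurine-conjugated bile acid, at 10 µM (AT10), 1 µM (AT1) or 0.1 µM (AT01) for 12 h. Poly(A) RNA of 12 libraries, 3 in each group, was sequenced. No sample of healthy rats was compared, and although the study calls the numbered libraries of a group repeats, it does not say that they came from separate animals or cultures, so that every p-value measures only the spread between these libraries, which may be technical.

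MMPs are zinc-dependent enzymes that cut the collagens and proteoglycans of the extracellular matrix. They are made as inactive proenzymes and are switched on by removal of a propeptide, and TIMPs bind to their active site and block it. In the arthritic joint, FLS are a main source of MMPs and TIMPs, and the balance of both is held to bear on how much matrix is lost. Enzyme activity is set largely after transcription, and the data here are RNA levels alone.

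The deposited values were FPKM (fragments per kilobase of transcript, scaled to the mapped fragments of the library), which account for transcript length and can therefore be set side by side between genes. The study lists the reads of each library, but the deposited values hold no counts per record, so how many reads a given FPKM rests on is not known. Over the libraries the sum of all FPKM ranged from 284210 to 309696, and between 11471 and 11679 records reached 1 FPKM. In the check of the cell type, 8 of 10 synovial fibroblast markers had a record, and all 8 were at or above 1 FPKM on average (Vim, Col1a1, Col3a1, Thy1, Pdpn, Cdh11, Pdgfrb and Prg4). Their sum was 4840 to 5564 FPKM in FCA, 4368 to 4952 in AT01, 4885 to 5004 in AT1 and 3670 to 5158 in AT10. Of the macrophage markers, 5 of 8 had a record and 2 reached 1 FPKM on average, Cd68 and Cd14. The sum of the 5 was 6.73 to 22.0 FPKM in FCA, 7.09 to 20.3 in AT01, 5.75 to 17.8 in AT1 and 18.5 to 21.5 in AT10. Most of this sum was Cd14, whose record lay at 2 separate levels. It had 4.6 FPKM in replicate 3 of FCA, 3.6 in replicate 1 of AT1, 3.72 in replicate 1 of AT01 and 15.7 to 18.8 elsewhere. Cd68 was 1.66 to 2.91 FPKM. The neutrophil (3 of 4 with a record), endothelial (4 of 5) and lymphocyte markers (4 of 5, with Cd3e at 0 in every library) each summed to at most 0.85 FPKM. For chondrocytes all 5 markers had a record and 3 reached 1 FPKM on average, while Col2a1 was at most 0.01 FPKM, and the sum was 8.01 to 10.1 FPKM in FCA, 5.72 to 8.29 in AT01, 6.46 to 8.24 in AT1 and 4.73 to 8.54 in AT10. All 4 smooth muscle markers had a record and reached 1 FPKM on average, with a sum of 158.9 to 410.0 FPKM that is given by group further below. In bulk RNA, fewer cells of a type and less RNA per cell cannot be told apart.

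The 9 genes covered a wide span of levels, and their order was nearly the same in every library. Mmp2 (gelatinase A, which cuts denatured collagen and basement membrane) was the most abundant, with a mean of 1557 ± 113 FPKM (SD, n = 12), and was the 6th to 12th highest of all records in a library. Timp1, a soluble inhibitor of most secreted MMPs, followed at 953 ± 74.1 FPKM. Mmp3 (stromelysin-1, which cuts proteoglycans and activates other pro-MMPs) had 513 ± 76.9 FPKM. Timp2, the inhibitor that also ties pro-MMP2 to the cell surface, had 196 ± 15.4 FPKM, and Mmp14 (MT1-MMP, the membrane-bound activator of pro-MMP2) had 191 ± 15.2 FPKM. Timp2 and Mmp14 were the only neighbours in this order whose ranges overlapped, with Timp2 above Mmp14 in 8 of 12 libraries. Below them stood Mmp13 (collagenase-3, the main enzyme against cartilage collagen) at 76.9 ± 12.5 FPKM, Mmp19 at 33.4 ± 1.99 FPKM and Mmp23, a membrane-anchored member, at 9.71 ± 1.30 FPKM. Timp3, which binds to the matrix and also inhibits aggrecanases and TNF-converting enzyme, was lowest at 1.43 ± 0.225 FPKM. Its only record holds an assembled transcript without an Ensembl identifier, so its value may not cover the whole gene. Each of these 9 genes was at or above 1 FPKM in all 12 libraries, and together they held 1.13% to 1.26% of all FPKM of a library. Mmp2 alone held 38.5% to 46.4% of the FPKM of the 9 genes.

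**Figure D1:**
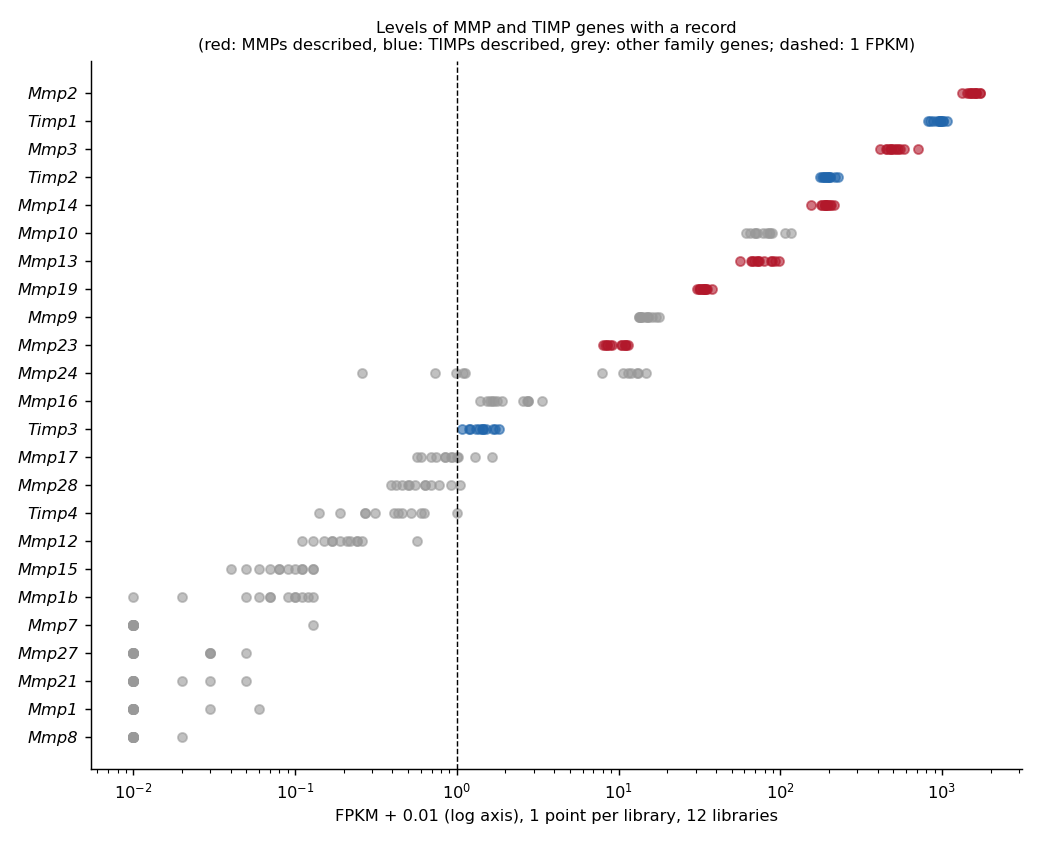
FPKM of the 24 MMP and TIMP genes with a record, on a log axis after adding 0.01, with 1 point for each of the 12 libraries (red and blue for the 9 genes described, grey for the other genes of the family, dashed line at 1 FPKM). Mmp2, Timp1 and Mmp3 lie at the top, Timp2 and Mmp14 overlap, and Mmp24 is the gene whose libraries lie at 2 separate levels.

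The question for each gene was whether TCDCA changed its RNA level. Tests were run with limma on log2(FPKM + 1) over the 11611 records whose mean over all libraries reached 1 FPKM, all 9 genes among them, and p-values were adjusted after Benjamini and Hochberg over all of these records. A log2 fold change on this scale understates the change of a gene with a low level, which concerns Timp3 above all.

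None of the 9 genes passed an adjusted p under 0.05 at any dose. The limma test called 0 of the 9 genes in AT10 against FCA, where 0.172% of all records were called, 0 of 9 in AT1 against FCA (0.0947% of all records) and 0 of 9 in AT01 against FCA (0.0947% of all records). With the 9 TCDCA libraries together against FCA it also called 0 of 9 (0.0258% of all records), and the F test over the 4 groups called 0 of 9 (0.0431% of all records). At an unadjusted p under 0.05 the count was 0 of 9 at each of the 3 doses, against 11.9% of all records in AT10, 11% in AT1 and 6.6% in AT01. It was 1 of 9 for TCDCA against FCA (Mmp19, 12% of all records) and 1 of 9 in the F test (Mmp2, 8.57% of all records). An F test built like that of Ballgown, the program of the study, likewise called 0 of 9 genes in each comparison after adjustment, beside 0.00861% of all records in AT10, in AT01 and in TCDCA against FCA, 0% in AT1 against FCA and 0.0172% over the 4 groups. Before adjustment it called 0 of 9 in AT10 (10.4% of all records), in AT1 (6.83%) and in AT01 (5.71%), 1 of 9 for TCDCA against FCA (Mmp19, 8.51% of all records) and 4 of 9 over the 4 groups (Mmp2, Mmp14, Timp1 and Timp3, 8.43% of all records).

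The intervals say how large a change these libraries could have held. The 36 intervals (95%, limma) of the 9 genes in the 4 comparisons with FCA lay between -0.57 and 0.68 on the scale of log2(FPKM + 1), and 35 of them included 0. For Timp3, whose level is near the 1 that was added, such a limit stands for a larger change in FPKM. With 0.1 added in place of 1, the lowest limit of Timp3 was -0.84, and the limits of the other 8 genes were -0.58 to 0.68. A log2 change of 1, the size the study asked for, was outside each of the 36 intervals on both scales. The median log2 fold change of the 9 genes was -0.11 in AT10, beside -0.01 over all records tested. It was -0.02 in AT1 and 0.00 in AT01, beside 0.02 and 0.00 over all records.

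**Figure D2:**
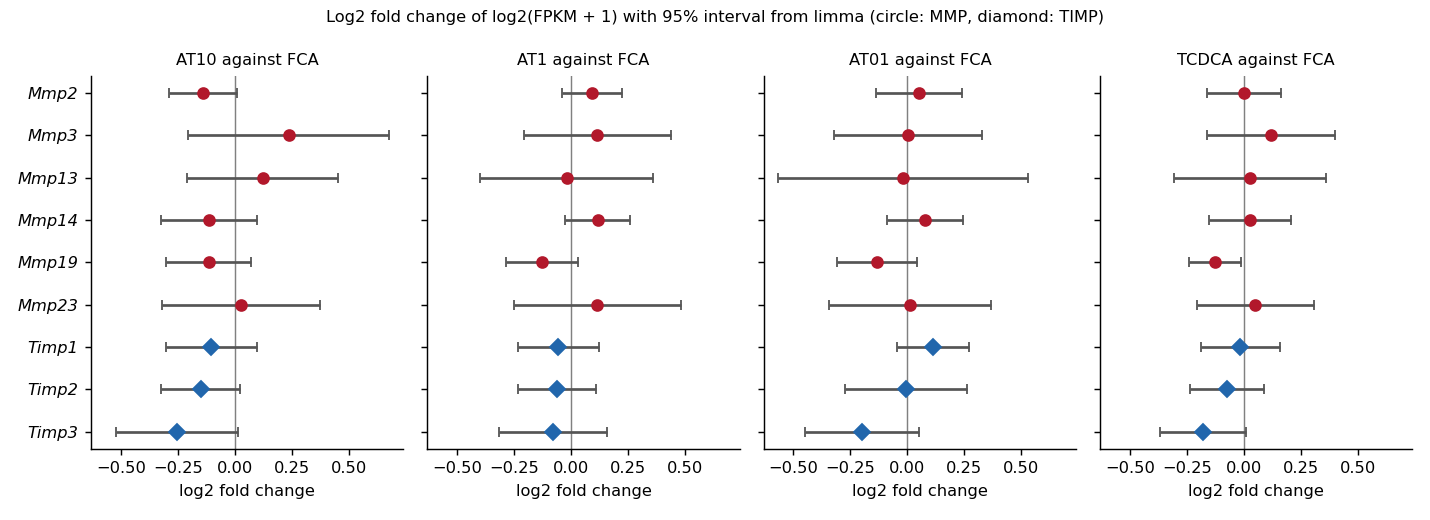
Log2 fold change of log2(FPKM + 1) for the 9 genes in AT10, AT1, AT01 and all TCDCA libraries against FCA, with 95% intervals from limma (circles for MMPs, diamonds for TIMPs). The interval of Mmp19 in TCDCA against FCA is the one of 36 that does not reach 0.

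Groups that did not overlap were counted beside the tests. In AT10, 2 of 9 genes (Mmp2 and Timp2, both lower) had all 3 libraries on one side of FCA, against 19.9% of all records. In AT1 it was 3 of 9 (Mmp2 and Mmp14 higher, Mmp19 lower), against 19.9% of all records, and in AT01 it was 3 of 9 (Timp1 higher, Mmp19 and Timp3 lower), against 14% of all records. With all 9 TCDCA libraries together it was 0 of 9, against 2.86% of all records.

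Mmp2 had the smallest p of the 9 genes in the F test over the 4 groups. Its values were 1510, 1606 and 1541 FPKM in FCA, 1720, 1521 and 1589 in AT01, 1624, 1712 and 1627 in AT1, and 1423, 1471 and 1336 in AT10. All AT10 libraries were therefore below all FCA libraries, all AT1 libraries were above them, and AT01 overlapped with FCA. Against FCA, AT10 gave a log2 fold change of -0.14 (SE 0.06, limma, adjusted p = 0.433), and the values were 0.09 in AT1 (SE 0.05, adjusted p = 0.527) and 0.05 in AT01 (SE 0.08, adjusted p = 0.882). The difference between doses was larger than either. AT10 against AT1 had a log2 fold change of -0.23 (SE 0.06, 95% interval -0.38 to -0.08, unadjusted p = 0.0104), which did not pass the adjustment over all records (limma, adjusted p = 0.669). The exact two-sided permutation test gave p = 0.1, the smallest that 3 libraries against 3 allow. In the F test over the 4 groups Mmp2 had an unadjusted p of 0.0195 and an adjusted p of 0.527 (limma). A second Mmp2 record, made of an assembled transcript, was between 0 and 0.46 FPKM.

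Mmp14 had a pattern like that of Mmp2, with 192, 182 and 188 FPKM in FCA, 198, 188 and 207 in AT01, 194, 214 and 203 in AT1, and 178, 188 and 155 in AT10. The AT1 libraries were above all FCA libraries and above all AT10 libraries, while AT10 and FCA overlapped. The log2 fold change of AT1 against FCA was 0.12 (SE 0.06, limma, adjusted p = 0.48), and that of AT10 against AT1 was -0.23 (SE 0.09, unadjusted p = 0.0456, limma, adjusted p = 0.748). Without replicate 3 of AT10, which had the lowest Mmp14 value of all libraries, the latter was -0.15. The other 2 records of Mmp14 were at most 0.75 FPKM.

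Timp2, the partner of both in the activation of pro-MMP2, had 198, 219 and 195 FPKM in FCA, 228, 203 and 180 in AT01, 196, 203 and 186 in AT1, and 190, 185 and 175 in AT10. The AT10 libraries were below the FCA libraries, with a log2 fold change of -0.15 (SE 0.07, limma, adjusted p = 0.456), and the other doses overlapped with FCA. The Mmp2 to Timp2 ratio of FPKM was 7.69 ± 0.227 in AT10 and 7.63 ± 0.299 in FCA (mean ± SD, n = 3). In AT1 it was 8.49 ± 0.242, with all 3 libraries above FCA, and in AT01 7.95 ± 0.757. The Mmp14 to Timp2 ratio was 0.923 ± 0.0798 in FCA, 0.982 ± 0.149 in AT01, 1.04 ± 0.0529 in AT1 and 0.946 ± 0.0659 in AT10.

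1 library of AT10 held many of the extremes. Replicate 3 of AT10 had the lowest value of all 12 libraries for 6 of the 9 genes (Mmp2, Mmp14, Mmp19, Mmp23, Timp2 and Timp3) and the highest for Mmp3. It also had the lowest sum of the 8 fibroblast markers (3670 FPKM) and of the 4 smooth muscle markers (158.9 FPKM). How often it was the lowest over all records was not counted. Its sum of all FPKM, 295444, was within the range of the other libraries. Its median correlation with the others was 0.944, where the 12 libraries had 0.9345 to 0.947. Over the groups the smooth muscle sum, mostly Acta2, was 306.9 to 410.0 FPKM in FCA, 223.3 to 287.5 in AT01, 251.6 to 290.1 in AT1 and 158.9 to 302.8 in AT10. All TCDCA libraries were thus below the lowest FCA library, as for Acta2 alone. Acta2 had means of 317 FPKM in FCA, 224 in AT01, 229 in AT1 and 209 in AT10. Myh11, Cnn1 and Des each overlapped with FCA at every dose. Of all records tested, 2.86% had no overlap between TCDCA and FCA. The part of these markers in the differences of Mmp2 and Mmp14 was not tested. Without this library, AT10 against FCA gave a log2 fold change of -0.10 for Mmp2, -0.03 for Mmp14, -0.12 for Timp2, and 0.07 in place of 0.24 for Mmp3.

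Mmp19, a secreted MMP of broad specificity, was lower in nearly all treated libraries. It had 37.9, 34.2 and 35.1 FPKM in FCA, 33.7, 31.7 and 31.8 in AT01, 31.2, 33.3 and 33.4 in AT1, and 34.7, 33.6 and 30.6 in AT10. Thus 8 of 9 TCDCA libraries were below the lowest FCA library, and the mean was 32.7 FPKM against 35.7. The log2 fold change of TCDCA against FCA was -0.13 (SE 0.05, unadjusted p = 0.0324, exact permutation p = 0.0182), and after adjustment over all records it did not pass (limma, adjusted p = 0.378). The 3 doses gave -0.11 (AT10), -0.13 (AT1) and -0.14 (AT01), and differed from each other by less than their standard errors (0.06 to 0.07).

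Mmp23 overlapped between all groups, with 9.13, 10.9 and 8.24 FPKM in FCA, 8.49, 11.2 and 8.81 in AT01, 11.5, 10.95 and 8.45 in AT1, and 10.5, 10.4 and 8.03 in AT10. Its log2 fold change of TCDCA against FCA was 0.05 (95% interval -0.21 to 0.31).

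Mmp3 and Mmp13 are the members known best as genes induced by inflammatory signals through the transcription factor AP-1 (dimers of Fos and Jun proteins). RefSeq promoter sequences (assembly GRCr8) were at hand for 6 of the 9 genes, Mmp3, Mmp13, Mmp23, Timp1, Timp2 and Timp3. The 250 bases before the start were searched for TGANTCA and for TATAAA on both strands. TGANTCA is a loose form of the AP-1 motif, with any base (N) in the middle, and reads the same on both strands. TGANTCA was in the windows of Mmp3 and Mmp13 alone among the 6, and in 6.34% of all 33469 rat promoters, and both windows also held TATAAA (12.9% of all promoters). The motif began 71 bases before the start in Mmp3 and 66 bases before it in Mmp13. Of the 15 other MMP and TIMP genes with a record, 12 had a promoter sequence at hand. Mmp9, Mmp16 and Mmp17 had none and were not searched. Of the 12, Mmp10 (61 bases before the start), Mmp1, Mmp7 and Mmp12 also held the motif, and of these 4 only Mmp10 reached 1 FPKM in these cells. The 110 bases before the start of the 3 expressed genes in which the motif was found are shown, 5′ to 3′ on the plus strand, with TGANTCA in capitals, for Mmp3 (chr8:12925171-12925280), Mmp13 (chr8:12782719-12782828) and Mmp10 (chr8:12974597-12974706).
Mmp3: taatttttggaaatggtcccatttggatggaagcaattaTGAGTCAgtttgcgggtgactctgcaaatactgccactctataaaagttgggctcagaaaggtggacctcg
Mmp13: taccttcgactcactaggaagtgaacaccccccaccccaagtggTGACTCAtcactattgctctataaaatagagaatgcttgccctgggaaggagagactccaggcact
Mmp10: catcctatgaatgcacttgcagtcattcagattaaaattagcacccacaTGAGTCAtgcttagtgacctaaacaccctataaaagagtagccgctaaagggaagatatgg

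Mmp3 had the largest log2 fold change in AT10 of the 6 MMPs among the 9 genes, but its libraries were spread widely. It had 482, 412 and 548 FPKM in FCA, 533, 454 and 452 in AT01, 503, 475 and 580 in AT1, and 518, 486 and 709 in AT10. Only replicate 3 of AT10 was above all FCA libraries at that dose. The log2 fold change was 0.24 in AT10 (SE 0.18, limma, adjusted p = 0.613), 0.12 in AT1 (SE 0.13, adjusted p = 0.724) and 0.00 in AT01 (SE 0.13, adjusted p = 0.998). The second Mmp3 record, an assembled transcript beside the first, had 90.5 to 161.5 FPKM and a Pearson r of 0.84 with the first over the 12 libraries, and how the reads were split between the 2 is not known.

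Mmp13 had 72.1, 66.5 and 87.7 FPKM in FCA, 56.3, 72.6 and 98.5 in AT01, 88.3, 66.3 and 68.9 in AT1, and 79.5, 92.2 and 74.1 in AT10. The lowest and the highest library of all were both in AT01, and all groups overlapped. TCDCA against FCA gave a log2 fold change of 0.03 (95% interval -0.31 to 0.36). Mmp3 and Mmp13, which share the motif, had a Pearson r of -0.08 over the 12 libraries (permutation p = 0.811) and a Spearman's rho of -0.01 (permutation p = 0.974).

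Of the inhibitors, Timp1 had 977, 932 and 965 FPKM in FCA, 1072, 1016 and 1017 in AT01, 955, 972 and 844 in AT1, and 816, 883 and 984 in AT10. The AT01 libraries were above those of every other group. AT01 against FCA gave a log2 fold change of 0.11 (SE 0.06, limma, adjusted p = 0.779), that of AT10 against AT01 was -0.21 (SE 0.09, adjusted p = 0.867) and that of AT1 against AT01 was -0.17 (SE 0.08, adjusted p = 1.00).

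Timp3 had 1.82, 1.44 and 1.71 FPKM in FCA, 1.31, 1.2 and 1.42 in AT01, 1.5, 1.37 and 1.67 in AT1, and 1.44, 1.18 and 1.07 in AT10. AT01 was below FCA without overlap, and 6 of 9 TCDCA libraries were below the lowest FCA library. TCDCA against FCA gave a log2 fold change of -0.18 (SE 0.09, exact permutation p = 0.0455, limma, adjusted p = 0.44), and that of AT10 against FCA was -0.25 (SE 0.11, adjusted p = 0.43).

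**Figure D3:**
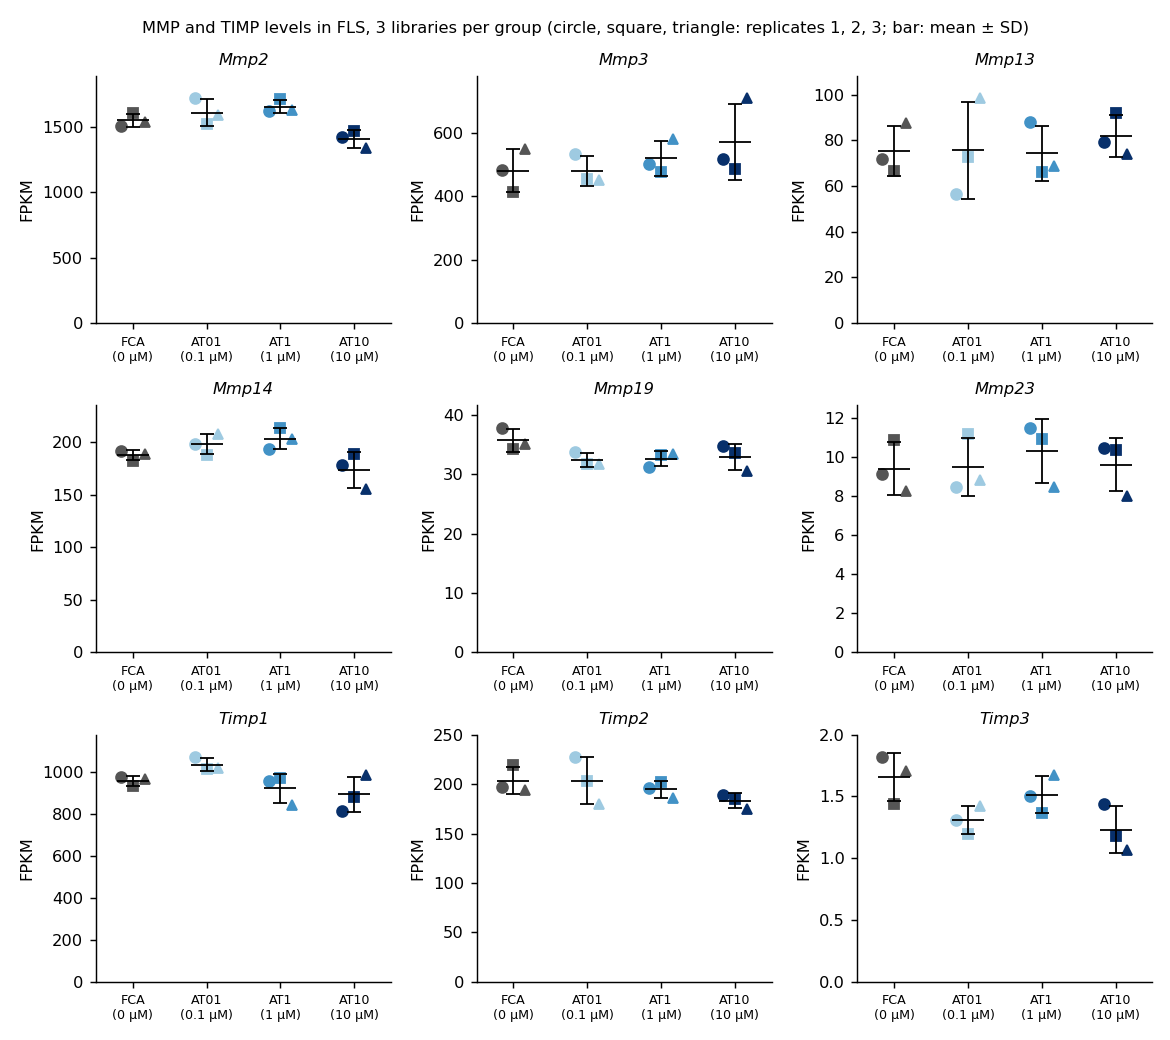
FPKM of the 9 genes in the 12 libraries by group (1 panel per gene, linear axis from 0, points for the 3 replicates, bars for mean ± SD). The AT10 libraries of Mmp2 lie below the FCA libraries and the AT1 libraries above them, and the AT01 libraries of Timp1 lie above all others.

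Between the doses, limma also called 0 of the 9 genes. At an adjusted p under 0.05 the share of all records called was 0.258% for AT10 against AT1, 0.0689% for AT10 set against AT01 and 0.129% for AT1 set against AT01. At an unadjusted p under 0.05 the counts were 2 of 9 (Mmp2 and Mmp14, 6.46% of all records), 0 of 9 (4.97% of all records) and 0 of 9 (3.43% of all records). The Ballgown-style F test called 0 of 9 after adjustment, beside 0.0172% of all records in AT10 against AT1 and between AT1 and AT01, and 0.00861% between AT10 and AT01. Before it, the counts of that test were 2 of 9 in AT10 against AT1 (Mmp2 and Mmp14, 8.79% of all records), 2 of 9 between AT10 and AT01 (Mmp14 and Timp1, 5.22%) and 1 of 9 between AT1 and AT01 (Timp3, 5.93%). Groups did not overlap for 2 of 9 genes in AT10 against AT1 (Mmp2 and Mmp14, 13.9% of all records), for 2 of 9 between AT10 and AT01 (Mmp2 and Timp1, 11.1% of all records) and for 1 of 9 between AT1 and AT01 (Timp1, 8.6% of all records). For Mmp2 in AT10 against AT01 the log2 fold change was -0.19 (SE 0.09, limma, adjusted p = 0.867). All comparisons with FCA share the same 3 control libraries.

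The balance of enzymes to inhibitors was given as the summed FPKM of the 6 MMPs over that of the 3 TIMPs. It was 1.96, 2.01 and 2.07 in FCA, 1.96, 1.87 and 1.99 in AT01, 2.13, 2.14 and 2.44 in AT1, and 2.23, 2.13 and 1.99 in AT10. The AT1 libraries were above the FCA libraries, and AT01 and AT10 overlapped with FCA. The mean ± SD was 2.01 ± 0.0583 in FCA, 1.94 ± 0.0645 in AT01, 2.24 ± 0.18 in AT1 and 2.12 ± 0.118 in AT10 (n = 3), with no test on a sum over chosen genes. The MMP sum was 2341 ± 58.7 FPKM in FCA and 2494 ± 37.6 in AT1, and the TIMP sum was 1164 ± 11.7 and 1120 ± 77.6 FPKM. The ratio rests on Mmp2 and Timp1, since without Timp1 it was 11.4 in FCA and without Mmp2 it was 0.678.

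The spread of the 9 genes was set beside that of other records, with no test. The SD of log2(FPKM + 1) over the 12 libraries was below the median of all records tested (0.18) for 7 of 9 genes, with a median of 0.12 over the 9, and the highest were 0.23 for Mmp13 and 0.20 for Mmp3. Among the 4362 records whose mean reached 10 FPKM the median was 0.16, and 5 of the 7 genes at that level were below it. Of the 36 pairs of genes, 18 had a positive Pearson r. Only Mmp2 and Mmp14 passed the adjustment over the 36 pairs, with r = 0.85 (permutation p = 0.00056, adjusted p = 0.0202) and Spearman's rho = 0.77 (permutation p = 0.00495, adjusted p = 0.178). Without the 2 libraries farthest from the median of Mmp2 (replicate 3 of AT10 and replicate 1 of AT01), r was 0.76 (permutation p = 0.011, adjusted p = 0.397). After the group means were taken out, r was 0.59 (permutation p = 0.0414, adjusted p = 0.248). The relation therefore passed only with those 2 libraries and the group means kept in. Mmp13 and Timp2 had the strongest negative r, -0.69 (permutation p = 0.0143, adjusted p = 0.129), with rho = -0.70 (permutation p = 0.0139, adjusted p = 0.251) and r = -0.39 without the 2 libraries farthest from the median of Mmp13. Mmp3 and Mmp23 had r = -0.66 (permutation p = 0.012, adjusted p = 0.129), rho = -0.66 (permutation p = 0.0236, adjusted p = 0.283) and r = -0.53 without 2 libraries. With the group means taken out, Mmp3 and Mmp23 had r = -0.85 (permutation p = 0.00065, adjusted p = 0.0234). The permutations with group means taken out moved the 12 values freely, although the deviations within a group are tied to each other. Their p-values, also that of Mmp2 with Mmp14, are therefore too small, and no pass is drawn from them.

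**Figure D4:**
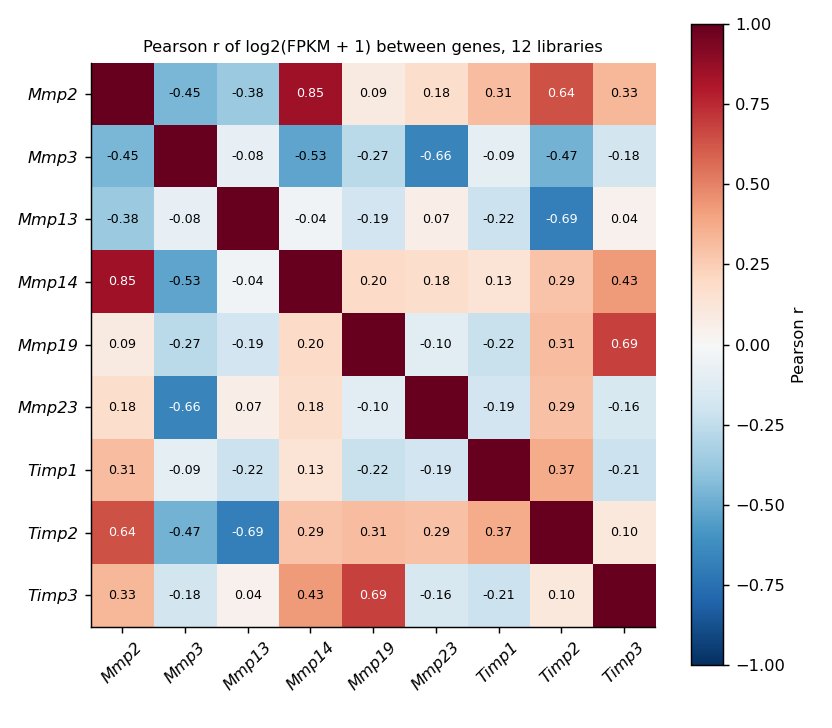
Pearson r of log2(FPKM + 1) over the 12 libraries for the 36 pairs of the 9 genes (red positive, blue negative). Mmp2 with Mmp14 (0.85) stands out on the positive side, and Mmp13 with Timp2 (-0.69) and Mmp3 with Mmp23 (-0.66) on the negative side.

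For the 3 genes with the widest range of log2(FPKM + 1), the most alike records among the other 11610 were sought over the 12 libraries. For Mmp3 they were Zfp180, a zinc finger gene (r = 0.93), and Mmp10 (r = 0.91), the neighbouring stromelysin-2. For Mmp13 they were Psmc6, a proteasome subunit (r = 0.91), and Cald1, an actin-binding protein (r = 0.91, with rho = 0.94). The third, Mmp23, holds that place only on this scale, since the highest over the lowest FPKM was 1.43 for Mmp23 and 1.70 for Timp3. For Mmp23 they were Wbscr17 (r = 0.90) and Chtop, an RNA export factor (r = 0.90). A highest r out of 11610 over 12 libraries is a description. Depth and group differ between the libraries and are the same for both genes of a pair. Mmp3 and Mmp10 are close relatives, and reads that match both could be shared between them.

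Of 19 other MMP and TIMP genes listed, 15 had a record and 4 were tested, Mmp9, Mmp10, Mmp16 and Mmp24. Mmp10 had 72.3, 64.7 and 86.7 FPKM in FCA, 89.1, 69.4 and 61.5 in AT01, 69.9, 78.2 and 107.2 in AT1, and 83.3, 84.6 and 117.0 in AT10, with a log2 fold change of AT10 against FCA of 0.34 (SE 0.17, limma, adjusted p = 0.495). As for Mmp3, replicate 3 of AT10 was highest. Mmp9 (gelatinase B) was 13.4 to 17.8 FPKM in all libraries, with a log2 fold change of TCDCA against FCA of 0.09 (adjusted p = 0.673). Mmp16 (MT3-MMP) was 1.38, 1.52 and 1.59 FPKM in AT10 and 1.77, 2.73 and 3.35 in FCA, without overlap, as in 19.9% of all records. Its log2 fold change was -0.51 (SE 0.18, limma, adjusted p = 0.371).

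Mmp24 (MT5-MMP, a membrane-type MMP known mostly from neurons) was the only gene of the family that passed. It had 13.2, 14.7 and 11.4 FPKM in FCA, 7.86, 10.7 and 11.9 in AT1, and 0.98, 1.08 and 0.25 in AT10. In AT01 it had 0.72, 12.9 and 1.11 FPKM, so that 1 library was at the level of FCA and the others at that of AT10. The log2 fold change of AT10 was -3.02 against FCA (SE 0.22, limma, adjusted p = 0.0167) and -2.67 against AT1 (SE 0.25, limma, adjusted p = 0.0261). The record holds an assembled transcript without an Ensembl identifier. The other record of the name, which holds the Ensembl transcripts, had 1.99, 3.18 and 0.08 FPKM in FCA, 1.6, 2.79 and 2.35 in AT1, 0.03, 0.01 and 1.54 in AT10, and 3.19, 2.24 and 2.36 in AT01. Its mean was thus also lowest in AT10, while its 3 AT01 libraries did not part into 2 levels. Values at 2 separate levels, as in this record, were found in 4.52% of the records tested and in 0 of the 9 genes. In 1 limma fit over the 12 libraries neither call of Mmp24 passed (adjusted p = 0.311 against FCA and 0.454 against AT1), nor in the Ballgown-style F test (adjusted p = 0.176 and 0.25). The call against FCA was also lost without replicate 1 of FCA (limma, adjusted p = 0.0509) or replicate 2 of FCA (0.0539), and that against AT1 without any one library but replicate 3 of AT10 (limma, adjusted p = 0.0643 to 0.111).

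**Figure D5:**
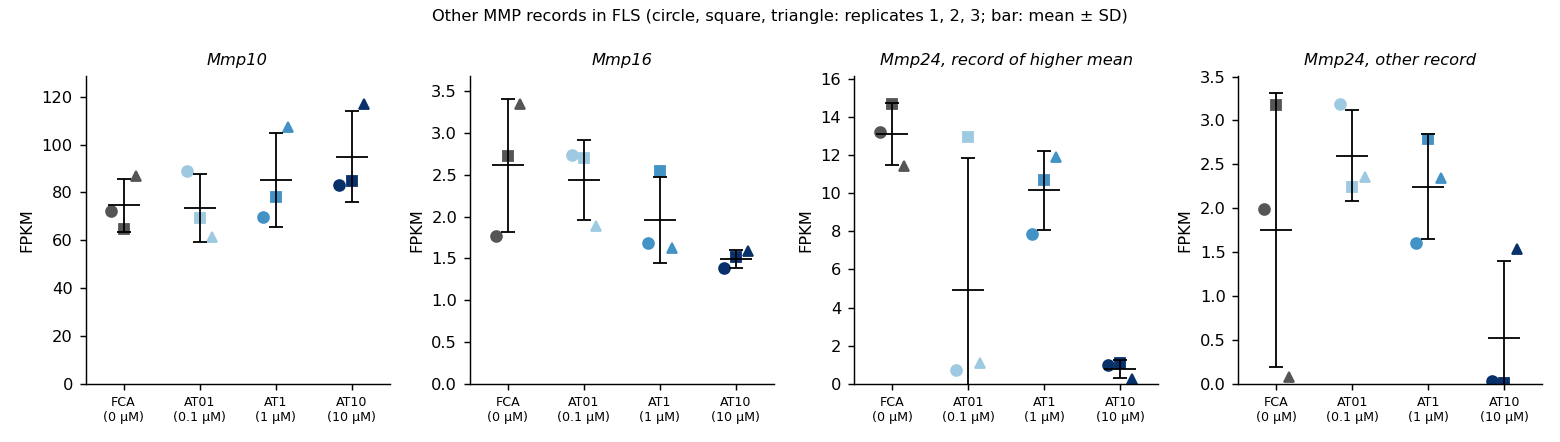
FPKM of Mmp10, Mmp16 and both records of Mmp24 in the 12 libraries by group (linear axis from 0, points for the 3 replicates, bars for mean ± SD). The Mmp24 record of higher mean is between 0.25 and 1.08 FPKM in AT10 and between 11.4 and 14.7 in FCA, with AT01 split between both levels, while the other record is also lowest on average in AT10 but between 2.24 and 3.19 in AT01.

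The genes that activate, restrain or clear MMPs were taken from a list of 19, of which 18 had a record and 15 were tested. They include the plasminogen activators, their receptor and inhibitors, the proprotein convertases, and receptors and thrombospondins that bind MMPs or take part in their clearance. Limma called 0 of 15 in each comparison, and at an unadjusted p under 0.05 there were 1 of 15 in AT10 against FCA (Plat, lower, 11.9% of all records), 0 of 15 in AT1 (11%), 1 of 15 in AT01 (Bsg, higher, 6.6%) and 2 of 15 for TCDCA against FCA (12%). Bsg (basigin, or EMMPRIN, a surface protein known to induce MMPs in fibroblasts) had 239, 252 and 218 FPKM in FCA, 364, 358 and 305 in AT01, 317, 239 and 333 in AT1, and 326, 326 and 225 in AT10. The AT01 libraries were above all FCA libraries (14% of all records had no overlap), and the log2 fold change of TCDCA against FCA was 0.38 (SE 0.14, unadjusted p = 0.0194, limma, adjusted p = 0.353). Furin, the convertase that activates pro-MMP14, had 123 ± 7.55 FPKM in FCA and 107 ± 8.16, 111 ± 8.22 and 113 ± 6.46 in AT01, AT1 and AT10 (mean ± SD, n = 3), with a log2 fold change of TCDCA against FCA of -0.16 (SE 0.07, limma, adjusted p = 0.38). Plat, the tissue plasminogen activator, was 82.6, 82.8 and 86.7 FPKM in FCA and 74.7, 68.7 and 70.6 in AT10, without overlap, as in 19.9% of all records. Its log2 fold change was -0.23 (SE 0.06, limma, adjusted p = 0.23).

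The transcription factors known from MMP promoters were a list of 15, all with a record and 13 tested, and limma called 0 of 13 in each comparison. At an unadjusted p under 0.05 there were 0 of 13 in AT10 against FCA (11.9% of all records), 2 of 13 in AT1 (11%) and 2 of 13 in AT01 (6.6%), Fos and Jun being lower in both, and 1 of 13 for TCDCA against FCA (Fos, 12%). Fos had 8.74, 15.0 and 8.45 FPKM in FCA, 5.41, 6.28 and 6.27 in AT01, 4.54, 5.91 and 5.32 in AT1, and 8.63, 6.65 and 6.15 in AT10. The AT01 and AT1 libraries were below all FCA libraries, and 1 AT10 library was within the FCA range. Of all records, 14% had no overlap with FCA in AT01 and 19.9% in AT1. TCDCA against FCA gave a log2 fold change of -0.69 (SE 0.17, unadjusted p = 0.00174), which did not pass the adjustment over all records (limma, adjusted p = 0.257). Jun was 19.9, 22.8 and 22.7 FPKM in FCA, 18.2, 17.3 and 17.3 in AT01, 15.3, 18.8 and 18.6 in AT1, and 21.3, 21.7 and 22.6 in AT10, with AT01 and AT1 below FCA and AT10 within it. Its log2 fold change of TCDCA against FCA was -0.20 (SE 0.11, limma, adjusted p = 0.48). Fosl1 had 1 high library, replicate 2 of FCA with 10.7 FPKM, and was at most 4.24 FPKM in the other libraries (log2 fold change of TCDCA against FCA -0.54, limma, adjusted p = 0.554). At the same doses, AT01 and AT1, Mmp3 and Mmp13, which hold the AP-1 motif, overlapped with FCA. AP-1 activity was not measured, and a link of these genes to the Fos or Jun levels was not tested.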

How the data were processed

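Poly(A) RNA of 12 FLS libraries was measured, 3 in each of the groups FCA, AT10, AT1 and AT01, as the sample labels give them. The deposited values are FPKM with 2 decimals for 22442 records, which the authors made with HISAT2 (alignment), StringTie (assembly and level) and Ballgown. The submitters' processing notes also name cutadapt and edgeR. The genome build is not given in the sources used here, the labels and the study name different sequencers, and no counts per record were at hand, so no counting interval was given. Records whose mean reached 1 FPKM were tested on log2(FPKM + 1) with limma 3.58.1 in R 4.3.3 (trend of variance over expression), the libraries of a comparison at a time. Single genes also had exact permutation tests, and correlations had 100000 permutations, in Python 3.11.15 with SciPy 1.17.1. The genes and lists were chosen with earlier results of these data known. Named were the 9 genes, family genes of at least 1 FPKM, the 3 genes of smallest p in TCDCA against FCA of each other list, and the 2 most alike records of the 3 genes of widest range. Alternatives were 0.1 as the pseudocount, every record above 0, records whose mean reached 10 FPKM, 1 fit over 12 libraries, a Ballgown-style F test, median-of-ratios scaling, sums by gene name, a replicate block and each library left out. For the lists and Mmp24 these were added after seeing the data. No coordinates of the records were used.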

Additional observations from a re-analysis of the deposited data

Results flagged for a closer look

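In the 9 TCDCA libraries, Mmp3 had 1 library that stood apart at the top, replicate 3 of AT10 with 708.8 FPKM, whose gap to the next library was 0.503 of the whole range (above 0.493, the value that chance exceeds in about 1 of 20 groups of 9). This group joins 3 doses, and 9 genes were searched in this way, each at both ends. On the scale of log2(FPKM + 1) the gap was 0.447 of the range, below that value.

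For Mmp2, all AT10 libraries were below and all AT1 libraries above the FCA libraries. The test of the difference, AT10 against AT1, gave a log2 fold change of -0.23 (limma, adjusted p = 0.669, exact permutation p = 0.1).

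For Mmp24, AT10 against AT1 gave -2.67 (limma, adjusted p = 0.0261) in a record with 2 separate levels.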

How the results depend on the processing

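Over all comparisons, the 123 alternatives tried (another pseudocount, filter, fit, test or scaling, sums by gene name, the replicate block, and each library left out) called 0 of the 9 genes in every case, and the lowest adjusted p of a member was 0.268 (limma, Mmp19, TCDCA against FCA, without replicate 1 of AT01), beside 0.378 in the reported fits. The study calls the replicate numbers sets of repeats, without saying what the libraries of a set share. They were not taken as pairs, since the deviations of same-numbered libraries from their group means correlated between -0.105 and 0.0942 over 18 pairs of libraries, none over 0.1. With the replicate block, 0 of 9 genes were called, with a lowest adjusted p of 0.379.

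Of 620 recomputed log2 fold changes of the 9 genes, 584 kept their direction and 36 turned, none of them called and none over 0.173 in size. For Mmp2 in TCDCA against FCA these were -0.00302 (Ballgown-style F test) and -0.00793 (median-of-ratios scaling), with -0.0182 to 0.0285 over the libraries left out. For Mmp3 they were -0.0479 in AT1 against FCA (Ballgown-style F test), and in AT01 against FCA -0.0576 (Ballgown-style F test), -0.00204 (median-of-ratios scaling), -0.00577 (sums by gene name) and -0.103 to 0.102 over the libraries left out. The ranges with a library left out were -0.147 to 0.0923 for Mmp13 in AT1, -0.225 to 0.173 in AT01 and -0.0576 to 0.14 in all TCDCA libraries. For Mmp23 they were -0.0554 to 0.14 in AT10, -0.103 to 0.109 in AT01 and -0.0318 to 0.149 in all TCDCA libraries. For Timp1 they were -0.0935 to 0.00817 in AT1 and -0.0383 to 0.0109 in all TCDCA libraries, and for Timp2 -0.0893 to 0.0800 in AT01. The cause was not tested.

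Summed by gene name, which adds the second Mmp3 record, the MMP to TIMP ratio was 2.11 in FCA, 2.02 in AT01, 2.34 in AT1 and 2.24 in AT10. Without Timp1 it was 11.4 in FCA, 11.8 in AT01, 12.7 in AT1 and 12.4 in AT10, and without Mmp2 it was 0.678, 0.642, 0.754 and 0.805, so that AT10 and not AT1 was highest in the latter. Of the 36 pairs of genes, 1 passed by Pearson's r, 0 by Spearman's rho and 0 without the 2 libraries farthest from the median. With group means taken out, 1 other pair was under the limit, but the permutation p-values there are too small.

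In the lists of other MMPs, regulators and transcription factors, the 2 calls, both of Mmp24, became 0 with a pseudocount of 0.1, with no filter, with a mean of at least 10 FPKM (where Mmp24 is not tested), in 1 fit over 12 libraries, in the Ballgown-style F test and with the replicate block. The number of calls was 1 to 3 with a library left out. Against FCA the Mmp24 call was lost without replicate 1 of FCA (adjusted p = 0.0509) and without replicate 2 of FCA (adjusted p = 0.0539), and against AT1 without any one library but replicate 3 of AT10 (limma, adjusted p = 0.0643 to 0.111 when lost). How many reads lie behind the low FPKM of Timp3, Mmp16 or Mmp24 is unknown.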

Other observations

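In AT10 against AT1, the comparison in which Mmp2 and Mmp14 had their largest differences, all 13 tested transcription factors of the list were higher in AT10, with a median log2 fold change of 0.14 beside -0.01 over all records tested, of which 47.1% were higher. In AT10 against AT01, 11 of the 13 were higher and 2 lower, with a larger median of 0.26 (49.9% of all records higher). In AT10 against FCA, 7 of the 13 were higher and 6 lower (median 0.01, 48.2% of all records higher). In AT1 against FCA 3 were higher and 10 lower (median -0.12, 53.2% of all records higher). In AT01 against FCA 3 were also higher and 10 lower (median -0.29, 50.3% of all records higher). A link of these shifts to Mmp2 and Mmp14 was not tested. Among the lists and comparisons counted, 13 of 13 was the most one-sided split, and no test of a list was run. In AT10 against AT1, 5 of the 15 tested genes that activate, restrain or clear MMPs were higher and 10 lower (median -0.08). At an unadjusted p under 0.05 (limma), 1 was higher (Plaur) and 3 lower (Lrp1, Thbs2 and Plat), against 6.46% of all records. For AT10 against AT1, limma called 0 of the 13 transcription factors after adjustment, and 3 had an unadjusted p under 0.05, Cebpb, Jun and Fos (6.46% of all records). Jun had a log2 fold change of 0.31 (SE 0.09, limma, adjusted p = 0.739) and Fos of 0.37 (SE 0.15, limma, adjusted p = 0.748). Cebpb, a factor of inflammatory genes that is named here after its values were seen, was 3.37, 2.86 and 2.13 FPKM in AT10 and was listed at 0 in 2 of the 3 AT1 libraries, with 1.17 FPKM in the other. Its log2 fold change was 1.53 (SE 0.34, limma, adjusted p = 0.513), and its values over the 12 libraries also lay at 2 separate levels.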
